A study of Mus musculus with 12 samples.

Results

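The immediate early genes Egr1, Egr2, Egr3, Fos, Fosb, Jun, Junb, Ier2, Dusp5 and Nr4a1 were followed in cultured preosteoclasts from mice with and without a tooth ligature. They are 10 of the 57010 genes listed and of the 15425 genes with enough counts to be tested, and were picked by symbol after their levels in ligated and unligated femur cultures had been seen. Their difference between ligated and unligated femur is therefore described and not tested. Fosb was kept among the tested genes mostly through 2 libraries, and its counts are given on their own.

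Bone marrow came from female mice of a floxed LSD1 line (the gene Kdm1a, a histone demethylase). In LSD1cKO mice the gene was deleted by a Cre recombinase under the LysM promoter, which is active in myeloid cells such as macrophages and neutrophils, and LSD1WT mice were the controls. Whether the LSD1WT mice carried the Cre is not given in the sources used here. A silk ligature was tied around the maxillary second molars for 7 days, and marrow was then flushed from the mandible or the femur of ligated mice or from the femur of mice without a ligature. The cells were grown for 2 days with M-CSF and RANKL, the cytokines that turn marrow precursors into osteoclasts, before polyA RNA was sequenced. The methods give an age of 2 months at ligature placement and of 3 months for the mice used in sequencing.

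The 12 libraries form 6 groups of 2, and the labels name 9 mice, 5 LSD1WT and 4 LSD1cKO. Of these, 1 LSD1WT mouse and 2 LSD1cKO mice gave both a femur and a mandible library. Unligated mandible was not analysed here, so mandible can be set only beside ligated and unligated femur. Mandible LSD1WT replicate 3 is a mandible culture by its title and a femur culture by its library name. The title was followed, and its 3.56 CPM of Egr1 stood beside the 3.63 CPM of mandible LSD1WT replicate 1 (CPM, read counts scaled by TMM to library sizes that can be compared). Egr1 is among the genes followed here, so its level does not settle the label. What changes if this library is taken as femur is given at the end.

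Total counts per library ran from 21375805 to 32526751. Kdm1a was at 61.2 to 71.3 CPM in LSD1WT and 15.6 to 24.3 CPM in LSD1cKO. The femur LSD1WT replicate 2 libraries stood apart, with 1098 CPM (ligated) and 1114 CPM (unligated) summed over 19 osteoclast genes, where the other 10 libraries had 14268 to 45907 CPM. The same libraries had 49465 and 24844 CPM summed over 12 macrophage markers and 904 and 439 CPM over 6 megakaryocyte markers, against at most 11005 and 61.3 CPM elsewhere. Within the mandible LSD1WT pair the squared difference in counts was, in the median gene, 1.54 times what sampling gives. Within the other pairs this squared difference was 4.89 to 88 times what sampling gives. The SD of the mandible LSD1WT pair may therefore hold less than the spread between mice.

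Immediate early genes are switched on within minutes by growth factors, cytokines and mechanical stress, without new protein synthesis, mostly through the ERK kinases and the serum response factor. Most encode transcription factors, and their transcripts decay quickly once the stimulus ends. In the osteoclast lineage, M-CSF and RANKL are such stimuli, and the AP-1 complex formed by Fos and Jun proteins is required for osteoclast formation.

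Promoter sequence from RefSeq (GRCm38.p6) was matched by symbol for 7 of the 10 genes. Egr1, Egr3 and Ier2 had no entry. The submitters' processing notes name GRCm39 for the counts, so the coordinates below belong only to the printed sequence. The 4 stretches are examples that lie just upstream of genes whose levels are described below, and each is on the plus strand, 5′ to 3′. A link between a motif and a level was not tested. Capitals mark the matches to the letters searched on both strands, which are the CArG box bound by the serum response factor, the cAMP response element (CRE) core TGACGT or ACGTCA, and the EGR site GCGNGGGCG or CGCCCNCGC. The AP-1 site TGANTCA was searched as well, and none of these motifs holds another.
Egr2, chr10:67537719-67537868: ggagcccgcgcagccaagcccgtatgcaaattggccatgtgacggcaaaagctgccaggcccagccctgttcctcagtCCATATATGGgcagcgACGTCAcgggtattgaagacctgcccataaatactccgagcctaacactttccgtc
Dusp5, chr19:53528995-53529108: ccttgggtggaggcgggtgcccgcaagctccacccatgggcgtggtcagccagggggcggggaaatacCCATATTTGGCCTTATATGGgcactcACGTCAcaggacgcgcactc
Fos, chr12:85473740-85473889: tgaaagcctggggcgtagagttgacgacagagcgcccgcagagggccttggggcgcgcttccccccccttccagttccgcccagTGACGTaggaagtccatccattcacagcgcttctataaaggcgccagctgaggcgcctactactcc
Nr4a1, chr15:101266696-101266845: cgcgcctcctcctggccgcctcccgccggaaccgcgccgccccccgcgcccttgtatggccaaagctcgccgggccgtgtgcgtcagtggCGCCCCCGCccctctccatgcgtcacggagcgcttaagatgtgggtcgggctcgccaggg
The Dusp5 stretch ends before the start given by RefSeq, where the first exon of GENCODE begins. Over the 250 bases before each of 32851 annotated starts, a CArG box was found in 1.47%, a CRE core in 6.47%, an EGR site in 4.7% and an AP-1 site in 6.75%. Egr2 held a CArG box and a CRE core before 3 of its 5 annotated starts, and Dusp5 held 2 adjoining CArG boxes and a CRE core. Fos held a CRE core, Fosb and Nr4a1 each held an EGR site, and the windows of Jun and Junb held no match. None of the 7 held an AP-1 site. A match describes these letters and not a bound factor. Sites further upstream than 250 bases were not searched, so a gene without a match here may hold the site elsewhere.

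**Figure D1:**
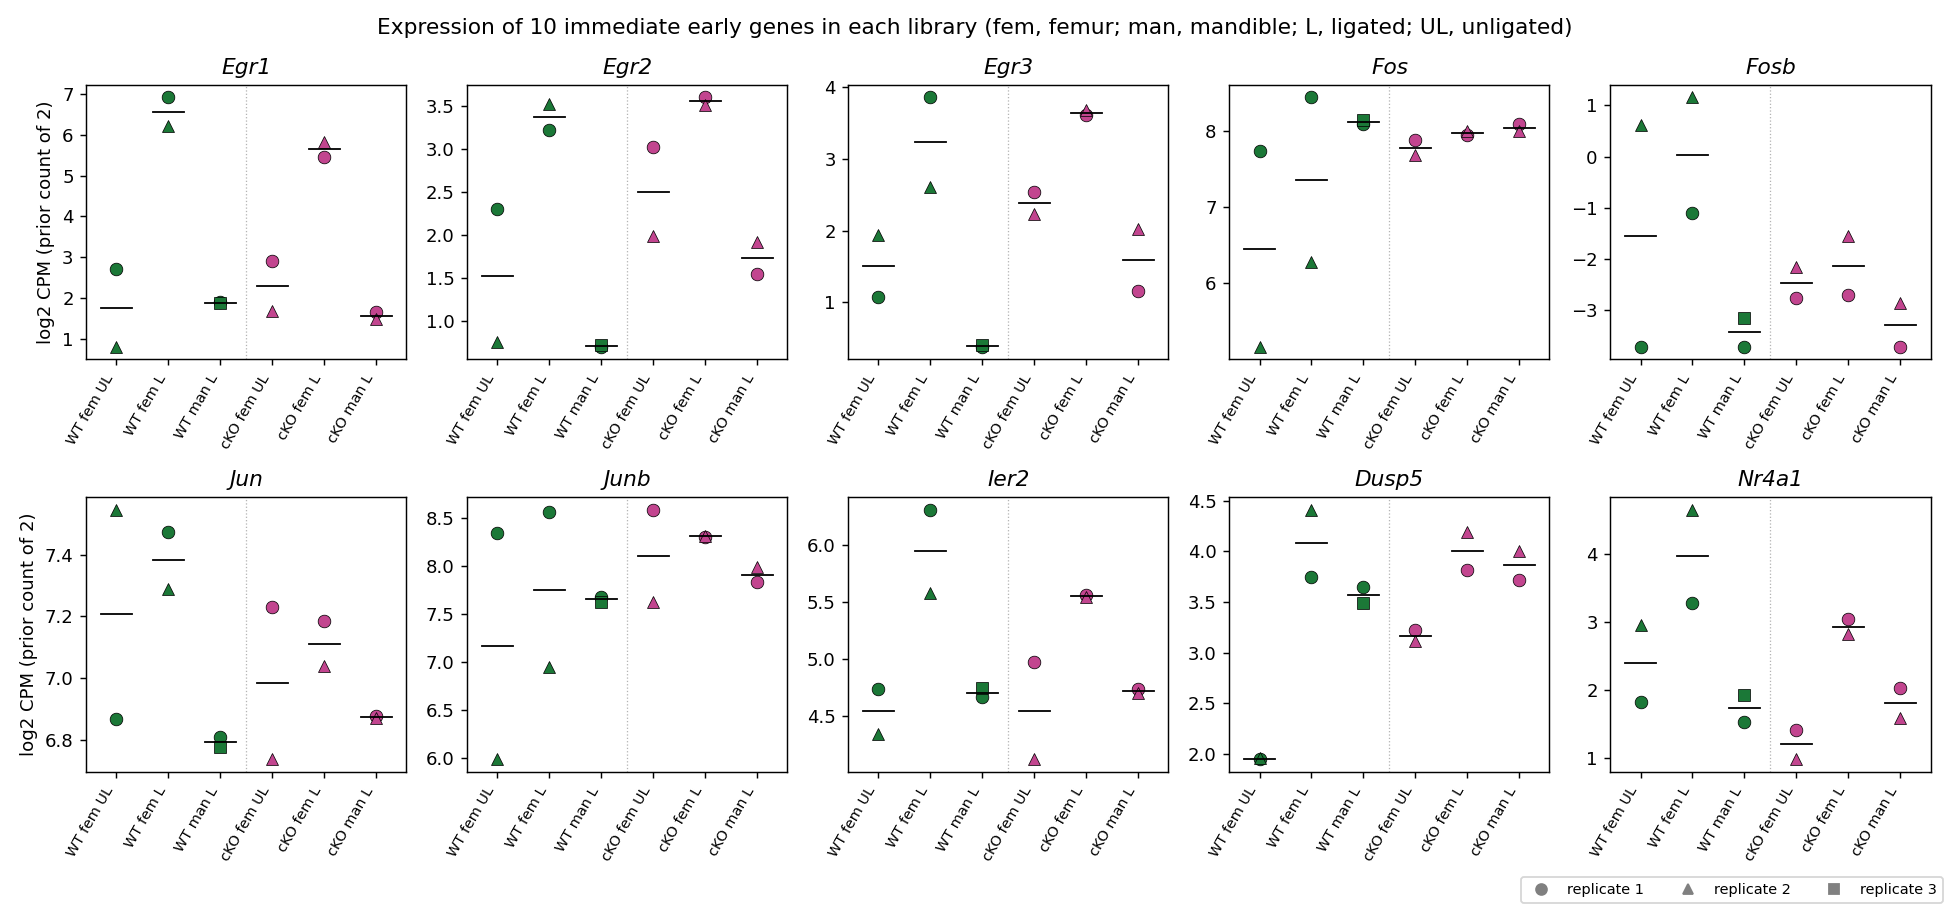
Level of each gene in each of the 12 libraries, as log2 CPM with a prior count of 2 (the vertical axes differ between genes), by group (WT, LSD1WT, green; cKO, LSD1cKO, magenta; fem, femur; man, mandible; L, ligated; UL, unligated). Points are libraries, marked by replicate number, and lines are group means. Egr1, Egr2, Egr3, Ier2, Dusp5 and Nr4a1 were higher in both ligated than in both unligated femur libraries of each genotype.

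Ligated was first set beside unligated femur, which asks how a ligature on the teeth goes with expression in cells from a distant bone. All 10 genes had a higher fitted mean in ligated femur in each genotype, with a median log2 fold change of 1.54 in LSD1WT and 0.90 in LSD1cKO, where the medians over all genes tested were 0.026 and -0.035. In LSD1WT 6 genes (Egr1, Egr2, Egr3, Ier2, Dusp5 and Nr4a1) were higher in both ligated libraries than in both unligated libraries, as were 5.25% of all genes tested. In LSD1cKO the same 6 genes and Fos did so, beside 14% of all genes tested. In the opposite direction there were 0 of the 10 genes, beside 3.93% and 16% of all genes tested. Nothing further is read from these counts, since this contrast chose the genes. Leaving out 1 library turned the direction of Fos in LSD1WT and of Fosb, Jun and Junb in both genotypes. The genes thus divided into those that separated the femur cultures in both genotypes and the AP-1 genes Fos, Fosb, Jun and Junb, which did not.

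Egr1 (ENSMUSG00000038418, chromosome 18), a zinc finger transcription factor of the EGR family, differed most. In LSD1WT it was at 122 and 74.2 CPM in the ligated femur and at 6.45 and 1.66 CPM in the unligated femur. The LSD1cKO levels were 44.3 and 56.8 CPM in the ligated femur and 7.41 and 3.12 CPM in the unligated femur. The groups were far apart in both genotypes, with the lowest ligated library 11.5 times the highest unligated library in LSD1WT and 5.97 times in LSD1cKO. The fitted difference was 24.1-fold in LSD1WT (4.59 on the log2 scale) and 9.59-fold in LSD1cKO (3.26). Among 10283 genes with a mean of at least 5 CPM over the libraries, Egr1 ranked 1 from the highest log2 fold change in each genotype.

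Egr2 (ENSMUSG00000037868, chromosome 10), an EGR family factor with a role in myeloid differentiation, was at 9.25 and 11.4 CPM in ligated and 4.85 and 1.62 CPM in unligated LSD1WT femur. In LSD1cKO it was at 12.1 and 11.4 CPM in ligated and 8.05 and 3.88 CPM in unligated femur. The ligated libraries lay close together at a like level in both genotypes, while the unligated replicates differed widely. The log2 fold changes were 1.67 and 0.97.

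Egr3 (ENSMUSG00000033730, chromosome 14), a closely related factor, was at 14.5 and 6.05 CPM in ligated and 2.02 and 3.77 CPM in unligated LSD1WT femur. In LSD1cKO the levels were 12.2 and 12.8 CPM in ligated and 5.77 and 4.62 CPM in unligated femur. The groups did not overlap in either genotype. The log2 fold changes were 1.83 in LSD1WT and 1.26 in LSD1cKO.

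Ier2 (ENSMUSG00000053560, chromosome 8), an immediate early gene for a nuclear protein, had the level most like that of Egr1 over the libraries (Pearson's r of 0.942 over the 12 libraries, the highest of the other 9 genes). Its LSD1WT levels were 79.4 and 47.7 CPM in ligated and 26.7 and 20.2 CPM in unligated femur. Its LSD1cKO levels were 47.2 and 46.5 CPM in ligated and 31.3 and 17.4 CPM in unligated femur. Each ligated library was above each unligated library of its genotype, with log2 fold changes of 1.44 and 0.94.

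Dusp5 (ENSMUSG00000034765, chromosome 19) encodes a nuclear phosphatase that is induced by ERK and switches ERK off. In LSD1WT it was at 13.4 and 21.2 CPM in ligated femur and at 3.78 and 3.81 CPM in unligated femur. The LSD1cKO levels were 14 and 18.2 CPM in ligated femur and 9.27 and 8.58 CPM in unligated femur. The ligated levels were alike in the genotypes and the unligated level was higher in LSD1cKO, so the log2 fold change was 2.19 in LSD1WT and 0.85 in LSD1cKO.

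Nr4a1 (ENSMUSG00000023034, chromosome 15), an orphan nuclear receptor (Nur77) that restrains inflammatory genes in macrophages, was at 9.64 and 25 CPM in ligated and 3.47 and 7.66 CPM in unligated LSD1WT femur. In LSD1cKO it was at 8.12 and 6.97 CPM in ligated and 2.60 and 1.91 CPM in unligated femur. The groups separated in both genotypes, narrowly in LSD1WT, where the lowest ligated library was 1.26 times the highest unligated library. The log2 fold changes were 1.64 and 1.74. With 1 library left out the LSD1WT value lay between 0.79 (without ligated replicate 2) and 2.26 (without unligated replicate 2), on both sides of the LSD1cKO value. The differences between the genotypes in these fold changes were not tested.

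Fos (ENSMUSG00000021250, chromosome 12), the AP-1 subunit needed for osteoclast formation, was at 346 and 77.5 CPM in ligated and 213 and 35.9 CPM in unligated LSD1WT femur. The low value of each pair was replicate 2, which nearly lacked osteoclast transcripts, and the groups overlapped. In LSD1cKO Fos was at 246 and 256 CPM in ligated and 235 and 205 CPM in unligated femur, where the groups touched within 1.05-fold. The log2 fold changes were 0.77 and 0.19. The LSD1WT value was -0.73 without ligated replicate 1, -0.056 without unligated replicate 2 and 2.57 without unligated replicate 1.

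Junb (ENSMUSG00000052837, chromosome 8), a Jun family partner of Fos, was at 379 and 123 CPM in ligated and 326 and 63.3 CPM in unligated LSD1WT femur, with replicate 2 again low in both pairs. In LSD1cKO it was at 315 and 319 CPM in ligated and 385 and 198 CPM in unligated femur. Both pairs of groups overlapped, at log2 fold changes of 0.37 and 0.12. The LSD1WT value was -0.71 without ligated replicate 1 and -0.43 without unligated replicate 2, and the LSD1cKO value was -0.26 without unligated replicate 2. Jun (ENSMUSG00000052684, chromosome 4), the founding member of the Jun family, was at 178 and 156 CPM in ligated and 117 and 187 CPM in unligated LSD1WT femur. In LSD1cKO it was at 145 and 131 CPM in ligated and 150.2 and 107 CPM in unligated femur. Its groups overlapped in both genotypes, with log2 fold changes of 0.14 and 0.11. These were -0.15 in LSD1WT without unligated replicate 1 and -0.098 in LSD1cKO without unligated replicate 2.

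Fosb (ENSMUSG00000003545, chromosome 7), a Fos paralog, was near the limit of detection. It had 12 and 42 counts in ligated and 0 and 35 counts in unligated LSD1WT femur, and 2 and 6 counts in ligated and 2 and 4 counts in unligated LSD1cKO femur. The high values were the femur LSD1WT replicate 2 libraries in both conditions. A count of 0 allows up to 3 counts, or 0.0927 to 0.154 CPM over the libraries, which covers counting error only.

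**Figure D2:**
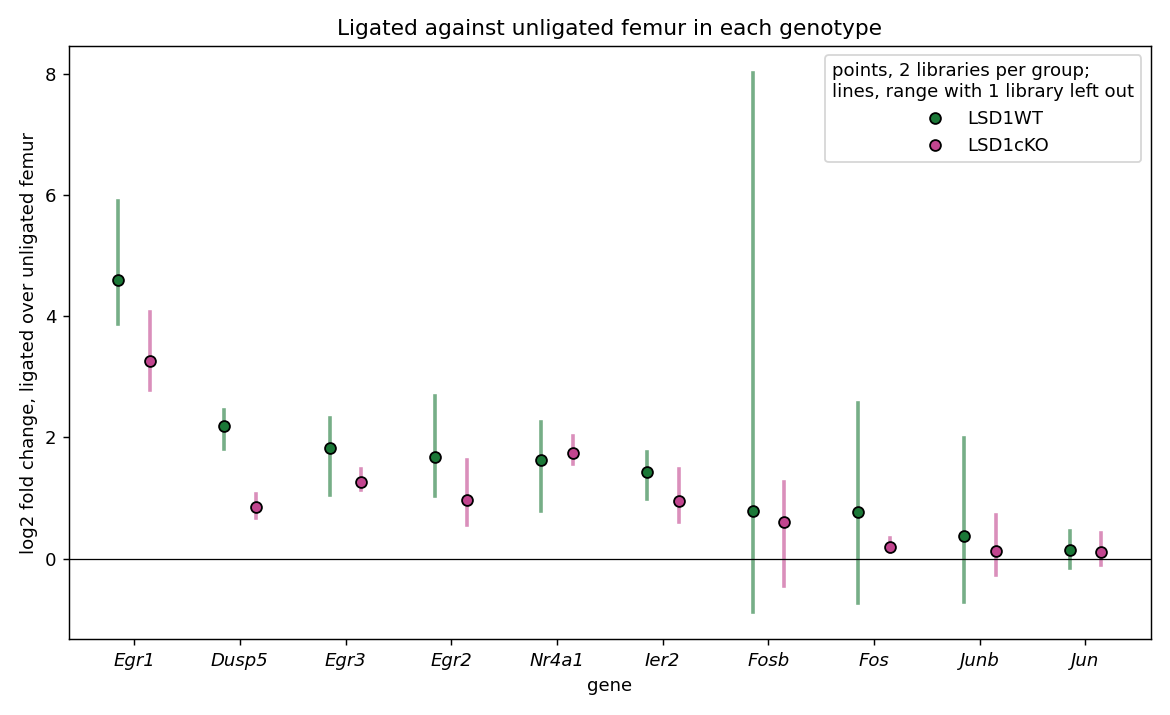
Fitted log2 fold change of each gene, ligated over unligated femur, in LSD1WT (green) and LSD1cKO (magenta), 2 libraries per group, with vertical lines for the range when 1 library is left out. Egr1 stayed between 3.87 and 5.89 in LSD1WT and between 2.79 and 4.06 in LSD1cKO, while the ranges of Fosb, Jun and Junb crossed 0 in both genotypes and that of Fos in LSD1WT.

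Without both femur LSD1WT replicate 2 libraries the median log2 fold change in LSD1WT was 1.42 over the 9 genes still tested (Fosb was dropped by the filter), and Egr1 was at 4.18, Egr3 at 2.78, Dusp5 at 1.77, Ier2 at 1.52, Nr4a1 at 1.42 and Egr2 at 0.88. Each group then held 1 library, so these are values with no spread of their own. Fos, Jun and Junb were at 0.65, 0.56 and 0.17.

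The unligated replicates of LSD1cKO were themselves apart, and the gap went through most of the genes. Unligated LSD1cKO replicate 1 was above replicate 2 for each of the 10 genes except Fosb. Without replicate 1 the LSD1cKO median was 1.21, and without replicate 2 it was 0.71. Egr1 was at 4.06 and 2.79 in these fits, and Nr4a1 at 2.02 and 1.55.

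Some markers of other cells also differed between ligated and unligated femur. Of the sums given here, those of T and NK cell and of neutrophil markers in LSD1cKO did not overlap. The others overlapped, as did all of them in LSD1WT. Summed over 9 T and NK cell markers, ligated LSD1cKO femur was at 14.2 and 11.1 CPM and unligated at 7.98 and 3.48 CPM, and ligated LSD1WT femur was at 3.91 and 18 CPM and unligated at 6.26 and 4.47 CPM. Cd3e, Cd3d, Cd3g, Cd8a, Ncr1 and Gzma among them had at most 3 counts in every library. Summed over 10 neutrophil markers, ligated LSD1cKO femur was at 306 and 279 CPM and unligated at 141 and 214 CPM, and 6 of the 9 tested were higher in both ligated libraries, where 14% of all genes tested were. In LSD1WT these sums overlapped, at 116 and 280 CPM in ligated and 160.2 and 89.5 CPM in unligated femur. Summed over 14 stromal markers, ligated LSD1cKO femur was at 22.2 and 17.2 CPM and unligated at 32.1 and 18 CPM, and ligated LSD1WT femur was at 14.2 and 49.4 CPM and unligated at 29 and 5.71 CPM. Of the 10 stromal markers tested, 8 had a lower mean in ligated LSD1cKO femur (median log2 fold change -1.46) and 6 were lower in both ligated libraries, where 16% of all genes tested were. In LSD1WT all 10 had a higher mean (median 0.73) and 0 separated the groups. The 5 megakaryocyte markers tested had medians of 0.98 in LSD1WT and 0.55 in LSD1cKO, with 5 and 4 of them higher in the mean, and Gp1bb was at 0 in every library. Their sums overlapped in both genotypes, at 33.7 and 34.1 CPM in ligated and 24.3 and 61.3 CPM in unligated LSD1cKO femur. The part of these cells in the gene differences was not tested. In bulk RNA, a change in the number of cells of a type and a change in RNA per cell cannot be told apart.

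The mandible cultures of ligated mice were then set beside both femur cultures. They share femur libraries with the contrast that chose the genes, so the values are a description. Egr1 was at 3.63 and 3.56 CPM in LSD1WT and 3.06 and 2.72 CPM in LSD1cKO mandible, below the mean of the unligated femur although these mice were ligated. Egr2 was at 1.55 and 1.58 CPM in LSD1WT and 2.85 and 3.71 CPM in LSD1cKO mandible, and Egr3 at 1.22 and 1.25 CPM in LSD1WT and 2.16 and 3.99 CPM in LSD1cKO mandible. Every mandible library was below every unligated femur library of its genotype for these 2 genes. Ier2 was at 25.3 and 26.8 CPM in LSD1WT and 26.7 and 26.1 CPM in LSD1cKO mandible, close to the higher unligated femur library in LSD1WT and between the unligated libraries in LSD1cKO.

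Among the genes that separated the femur cultures, Dusp5 was the exception in both genotypes and Nr4a1 in LSD1cKO alone. The mandible levels of Dusp5 were 12.5 and 11.2 CPM in LSD1WT and 13.1 and 15.9 CPM in LSD1cKO, above both unligated femur libraries of each genotype. They lay below both ligated femur libraries in LSD1WT (a log2 difference of -0.55) and overlapped them in LSD1cKO (-0.15). Nr4a1 was at 2.82 and 3.74 CPM in LSD1WT mandible, overlapping the unligated femur, and at 4.02 and 2.94 CPM in LSD1cKO mandible, between the unligated and the ligated femur. Fos was at 271 and 282 CPM in LSD1WT and 271 and 255 CPM in LSD1cKO mandible, which was above both unligated femur libraries in each genotype.

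Jun was at 112 and 109.5 CPM in LSD1WT and 117 and 117 CPM in LSD1cKO mandible, below the ligated femur of both genotypes. Junb was at 204 and 198 CPM in LSD1WT and 228 and 253.5 CPM in LSD1cKO mandible. Fosb had 0 and 1 counts in LSD1WT and 0 and 2 counts in LSD1cKO mandible, so it was not detected above the limit of 3 counts there.

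Fosb is left out of the counts that follow. Against the ligated femur, 7 of the other 9 genes were lower in mandible without overlap in LSD1WT and 7 in LSD1cKO, where 31.5% and 35% of all genes tested were, and 0 were higher, where 29.2% and 35.3% were. The median log2 difference over all 10 genes was -1.84 in LSD1WT and -0.97 in LSD1cKO, and Egr1 differed by -4.77 and -4.13. Against the unligated femur, 2 genes (Fos and Dusp5) were higher in LSD1WT mandible and 3 (Egr2, Egr3 and Jun) lower, beside 27.3% and 29% of all genes tested. In LSD1cKO 3 genes (Fos, Dusp5 and Nr4a1) were higher and 3 (Egr1, Egr2 and Egr3) lower, beside 23.7% and 24%. In this last comparison site and ligature cannot be told apart.

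**Figure D3:**
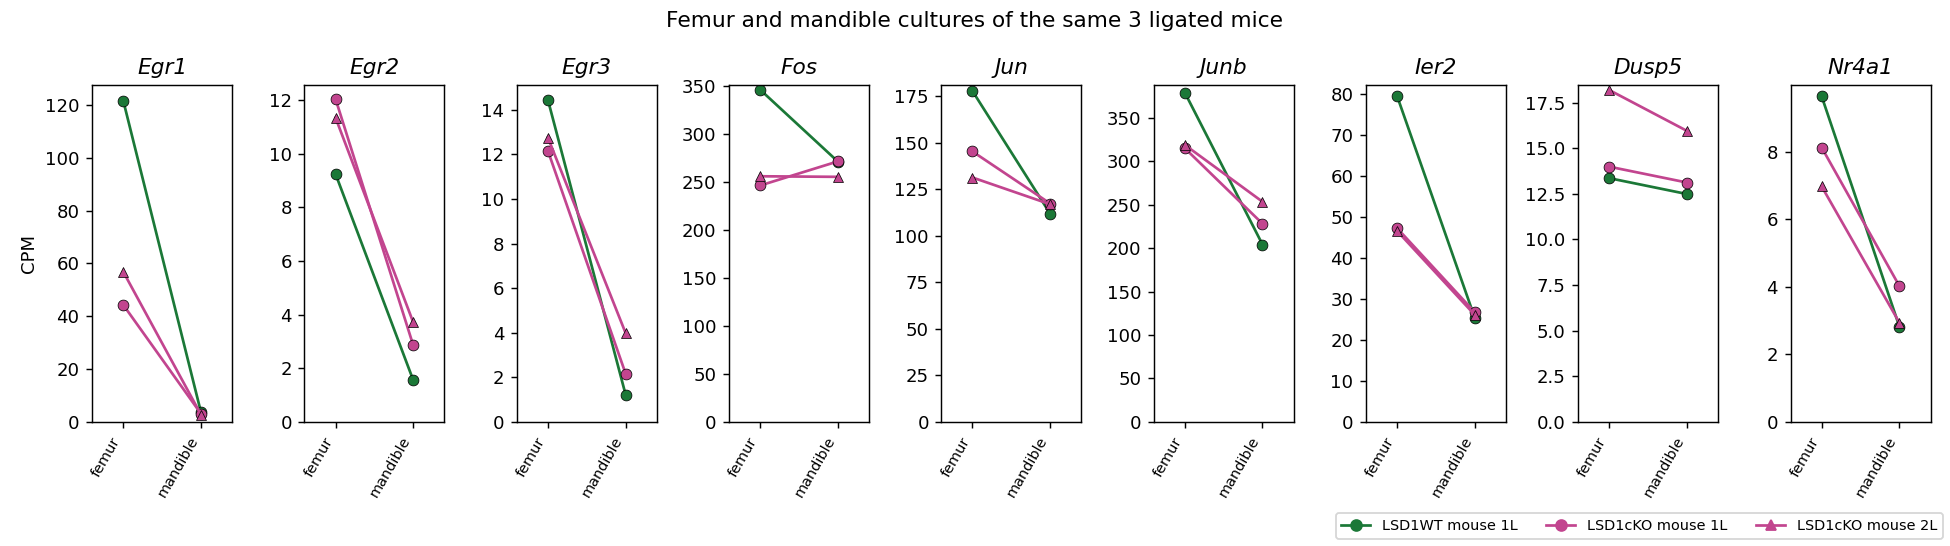
Level (CPM, linear axes from 0) of 9 of the genes in the femur and mandible cultures of the 3 ligated mice that gave both, with 1 line per mouse (green, LSD1WT; magenta, LSD1cKO). Egr1, Egr2, Egr3, Ier2 and Nr4a1 were lower in mandible than in femur in each mouse, and Dusp5 stayed within 1.14-fold.

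The mice that gave both sites carried the same ligatures for both cultures. Egr1 was 33.5 times as high in femur as in mandible in the LSD1WT mouse and 14.5 and 20.9 times in the LSD1cKO mice. The ratios were 5.96, 4.23 and 3.06 for Egr2 and 11.8, 5.62 and 3.2 for Egr3, with the LSD1WT mouse first. For Ier2 they were 3.14, 1.77 and 1.78, and for Nr4a1 they were 3.42, 2.02 and 2.37. Femur was thus the higher site for these 5 genes in each of the 3 mice. For Dusp5 the ratios were 1.07, 1.07 and 1.14, and for Fos 1.28, 0.907 and 1.00, so the sites of these genes were close in the same mice. Jun (1.59, 1.24 and 1.12) and Junb (1.86, 1.38 and 1.26) were also nearer to 1 than those 5 genes in the same mouse. Markers of other cells differed between the sites as well. The 12 macrophage markers summed to 2865 to 3611 CPM in mandible and 6757 to 49465 CPM in ligated femur (at most 11005 CPM without LSD1WT replicate 2). The 6 megakaryocyte markers summed to 10.7 to 19.8 CPM in mandible and 21.8 to 904 CPM in ligated femur (at most 34.1 CPM without LSD1WT replicate 2). The 9 T and NK cell markers, 6 of them at most at 3 counts, summed to 0.326 to 0.859 CPM in mandible and 3.91 to 18 CPM in ligated femur. The 14 stromal markers went the other way in each of the 3 mice that gave both sites. In the LSD1WT mouse they summed to 82.3 CPM in mandible and 14.2 CPM in femur. In the LSD1cKO mice they summed to 32.4 and 26.2 CPM in mandible and 22.2 and 17.2 CPM in femur. The part of all these markers in the site difference was not tested.

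The genotypes were compared in the mandible, where no library had been used to choose the genes. Of the 10 genes, 0 passed an adjusted p of 0.05 between the genotypes (edgeR's quasi-likelihood test, Benjamini-Hochberg over all genes tested), as had 0% of all genes. At an unadjusted p under 0.05 there was 1 gene, Egr3, beside 3.81% of all genes higher and 1.01% lower. Of the genes, 5 (Egr2, Egr3, Jun, Junb and Dusp5) were higher in both LSD1cKO libraries and 1 (Egr1) was lower, where 34.1% and 34.8% of all genes were. Their median was 0.17 on the log2 scale, or 0.084 if Fosb is left out, and the median over all genes was 0. With 2 libraries per group, these p-values measure only the spread between the samples at hand. That spread was estimated for each gene over all 12 libraries, including the femur LSD1WT replicate 2 libraries that stood apart. The p-values and standard errors here therefore do not describe the spread between mandible libraries alone.

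Egr3 averaged 1.24 ± 0.0166 CPM in LSD1WT mandible (SD, n = 2) against 3.08 ± 1.29 CPM in LSD1cKO mandible (SD, n = 2). Its log2 fold change was 1.31 with a standard error of 0.51, and its adjusted p was 0.911 (edgeR's quasi-likelihood test). Egr2 averaged 1.56 ± 0.0193 CPM in LSD1WT (SD, n = 2) against 3.28 ± 0.607 CPM in LSD1cKO (SD, n = 2). Its log2 fold change was 1.07 with a standard error of 0.53, and its adjusted p was 1 (edgeR's quasi-likelihood test). Both genes thus lay higher in LSD1cKO without passing the test.

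Egr1 was lower in LSD1cKO in the same cultures, at 3.6 ± 0.0512 CPM in LSD1WT (SD, n = 2) against 2.89 ± 0.238 CPM in LSD1cKO (SD, n = 2). This is a log2 difference of -0.32 with a standard error of 0.61. With the replicate number as a block the log2 difference itself was 0.052, in the opposite direction. Dusp5 averaged 11.8 ± 0.942 CPM in LSD1WT (SD, n = 2) against 14.5 ± 2 CPM in LSD1cKO (SD, n = 2), which differ by 0.30 on the log2 scale with a standard error of 0.28. Junb differed by 0.26, Jun by 0.082, Nr4a1 by 0.084, Ier2 by 0.018 and Fos by -0.070 on the log2 scale, each within 1 standard error. A fit of the 4 mandible libraries alone called 3 of the 9 genes it tested (Egr2, Egr3 and Junb, all higher in LSD1cKO). It called 5434 of all 14403 genes it tested, so nothing particular to these genes is read from it. DESeq2 called 0 of the 10 genes and 146 of all genes.

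**Figure D4:**
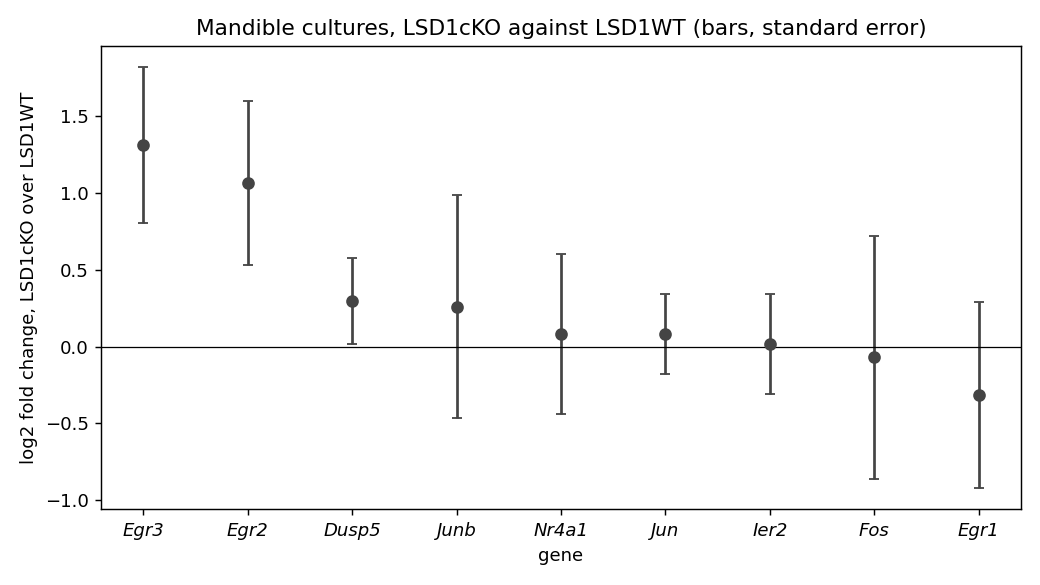
Log2 fold change of LSD1cKO over LSD1WT in mandible cultures (2 libraries each) with its standard error, from the fit of all 12 libraries, for the 9 genes above 3 counts. Egr3 (1.31) and Egr2 (1.07) lay highest and Egr1 (-0.32) lowest, and no gene passed the adjusted test.

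Osteoclast transcripts differed between the same mandible cultures. Summed over 19 osteoclast genes, LSD1WT mandible was at 30551 and 30414 CPM and LSD1cKO mandible at 17639 and 17634 CPM, and each of the 19 was lower in both LSD1cKO libraries, where 34.8% of all genes tested were. None of the 19 passed the adjusted test (0 genes, edgeR), and 0 had an unadjusted p under 0.05. The spread in that test also comes from the femur LSD1WT replicate 2 libraries, which nearly lacked these transcripts. No conclusion about the mandible cultures is therefore drawn from it. Summed over 14 stromal markers, LSD1WT mandible was at 82.3 and 77.2 CPM and LSD1cKO mandible at 32.4 and 26.2 CPM. Of the 10 stromal markers tested, 7 were lower in both LSD1cKO libraries and 1 was higher (median log2 difference -1.52). Of them 0 were called and 1 was lower at an unadjusted p under 0.05 (edgeR), beside 1.01% of all genes tested. The part of these differences in Egr2 and Egr3 was not tested.

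In the ligated femur 4 of the genes other than Fosb (Egr1, Jun, Ier2 and Nr4a1) lay lower in each LSD1cKO library than in each LSD1WT library and 0 lay higher, where 19.4% and 14.8% of all genes tested were. The log2 differences were -0.95 for Egr1, -0.44 for Ier2 and -1.20 for Nr4a1. In the unligated femur 2 genes (Egr3 and Dusp5) were higher and 1 (Nr4a1) was lower in LSD1cKO, where 9.82% and 8.57% of all genes were. Dusp5 differed by 1.23 and Nr4a1 by -1.30 on the log2 scale. These comparisons use the femur libraries that chose the genes and were not tested. The low osteoclast transcripts of femur LSD1WT replicate 2 enter both of them, and their part was not tested.

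Levels were compared between genes only after dividing by exon length (CPM per kb, with the exons of GENCODE vM21). Junb, Fos, Jun and Ier2 were the 4 highest in every group and Fosb was the lowest in every group. Junb led the femur groups, at 84.5 to 138 CPM per kb, and Fos led the mandible groups, at 117 and 112 CPM per kb. Egr1 ranked 5 in the ligated femur of each genotype, at 21.8 and 11.3 CPM per kb, and between 7 and 9 in the other groups, at 0.644 to 1.17 CPM per kb.

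The likeness of the genes to each other was described with the mean of their standardised log2 CPM over the 12 libraries. Pearson's r with that mean, which each gene helps to form, was 0.963 for Egr1, 0.949 for Ier2, 0.883 for Egr2 and 0.859 for Egr3. It was 0.686 for Nr4a1, 0.595 for Dusp5, 0.546 for Jun, 0.412 for Fosb, 0.408 for Junb and 0.174 for Fos. Fos and Fosb went opposite ways, with an r of -0.763. The genes were picked on their levels in femur libraries that enter these correlations. Likeness among them, also that of Ier2 to Egr1, is therefore partly built in by the choice. Among 10274 other genes with a mean of at least 5 CPM, the most like the mean were Frg1 (0.887), Herpud1 (0.862), Snw1 (0.833), Zfp654 (0.822), Odr4 (0.822), Plcl2 (0.803), Erlec1 (0.796), Kdm7a (0.793), Rnf214 (0.788) and Nsa2 (0.786). Herpud1 encodes a protein of the endoplasmic reticulum stress response and Kdm7a a histone demethylase. These 10 genes differed far less than Egr1, with log2 fold changes between ligated and unligated femur of 0.21 to 0.66 in LSD1WT and 0.15 to 0.53 in LSD1cKO. The points share 12 libraries, 2 of which nearly lacked osteoclast transcripts.

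Other immediate early genes were taken from a list of 32, of which 30 were tested. In the femur 0 had an adjusted p under 0.05 for the ligature in either genotype, as had 0% of all genes (edgeR's quasi-likelihood test), and DESeq2 called 0 of the 30 in either. At an unadjusted p under 0.05, 2 were higher and 0 lower in ligated LSD1WT femur, beside 0.454% and 0.311% of all genes. In LSD1cKO 0 were higher and 1 lower, beside 0.499% and 0.46%. The medians were 0.22 and 0.15 on the log2 scale. The genes at an unadjusted p under 0.05 were Nr4a3, a relative of Nr4a1, at 2.78, Ccn1, a matricellular growth factor gene, at 2.43, and, in LSD1cKO, the Fos relative Fosl1 at -2.37. They were named after their values were seen, and each had a mean under 2 CPM over the libraries.

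Among the more abundant genes of that list, Btg2, an antiproliferative immediate early gene, differed most in both genotypes. In LSD1WT femur it was at 12.4 and 72.6 CPM in ligated and 4.77 and 20.8 CPM in unligated cultures, and in LSD1cKO femur at 30.7 and 33 CPM in ligated and 14.7 and 15 CPM in unligated ones. Its log2 fold changes were 1.73 in LSD1WT, where the groups overlapped, and 1.10 in LSD1cKO, where they did not, with an adjusted p of 1 in each (edgeR's quasi-likelihood test). In mandible Btg2 was at 2.45 and 1.80 CPM in LSD1WT and 4.23 and 3.74 CPM in LSD1cKO, below both femur cultures. Klf2, a Krüppel-like factor of quiescent myeloid cells, had log2 fold changes of 0.67 and 0.51. Ier3 in LSD1WT (1.51) and the small Maf protein gene Maff in LSD1cKO (0.86) completed the 3 with the largest change, and none passed the adjusted test. The groups of Klf2 and Ier3 overlapped in LSD1WT. Ier3 was at 1.75 and 64.7 CPM in ligated and 3.2 and 20 CPM in unligated LSD1WT femur, with replicate 2 the higher of each pair.

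No gene of the pathway around these genes passed the adjusted test in the femur. Of 21 ERK and serum response factor pathway genes, 0 were called in either genotype and 0 had an unadjusted p under 0.05, with medians of -0.0090 and -0.078 (edgeR's quasi-likelihood test). Of 12 ERK feedback inhibitors, 0 were called, with medians of 0.25 and 0.038. Spred2, an inhibitor of the Ras and ERK cascade, was the 1 with an unadjusted p under 0.05, at a log2 fold change of -0.97 in LSD1cKO and -0.66 in LSD1WT. Dusp1, a MAP kinase phosphatase, was at 0.67 in LSD1WT, Dusp4 at -0.61 in LSD1cKO, and Dusp2 at 0.50 in LSD1WT and 0.66 in LSD1cKO. In LSD1WT the groups of Spred2, Dusp1 and Dusp2 overlapped.

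Of 17 partners and corepressors of the EGR and AP-1 factors, 0 were called and 0 had an unadjusted p under 0.05, with medians of 0.096 and 0.026 (edgeR's quasi-likelihood test). Nab2, a corepressor that EGR1 induces, was at 0.35 in LSD1cKO, and Crem, a factor that binds the CRE, was at 0.42 in LSD1WT. Nfatc1, the main transcription factor of osteoclast formation, was at 0.28 in LSD1WT and -0.25 in LSD1cKO. Mafg, a small MAF protein, was at -0.18 in LSD1cKO. The groups of Crem in LSD1WT and of Nfatc1 in both genotypes overlapped.

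Of 17 delayed inflammatory genes, 16 were tested and 0 were called in the femur, with medians of 0.049 and 0.19 (edgeR's quasi-likelihood test). Il1b, the cytokine interleukin 1 beta, had log2 fold changes of 4.06 in LSD1WT and 2.39 in LSD1cKO, and Ptgs2, the inducible cyclooxygenase, had 1.39 and 0.79. Il1b in both genotypes and Ptgs2 in LSD1WT had an unadjusted p under 0.05, and both were named after their values were seen. Each had a mean under 5 CPM over the libraries. Cd83, an activation marker, was at 1.56 and 0.97, Nfkbiz at 1.46 and Ccl4 at -0.96 in LSD1WT, and Cxcl10 at 1.06 and Ccl3 at -0.70 in LSD1cKO. The groups of Cd83, Nfkbiz and Ccl4 overlapped in LSD1WT and those of Ccl3 in LSD1cKO. Nfkbiz was at 3.78 and 36.5 CPM in ligated and 5.57 and 9.07 CPM in unligated LSD1WT femur, with replicate 2 the higher of each pair. Of 11 heat shock genes, which respond to cell stress, 0 were called and 0 had an unadjusted p under 0.05, with medians of -0.048 and -0.17 (edgeR).

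In the mandible genotype comparison, the same lists had 0 calls each (edgeR's quasi-likelihood test). At an unadjusted p under 0.05 (edgeR), 3 other immediate early genes were higher in LSD1cKO and 0 lower. Of all genes tested, 3.81% were higher and 1.01% lower at that threshold. Klf4, a Krüppel-like factor that drives monocyte differentiation, was at 10.7 CPM in LSD1WT and 37.4 CPM in LSD1cKO on average, a log2 fold change of 1.81 with an adjusted p of 0.166 (edgeR's quasi-likelihood test). It was called by DESeq2, without a filter on low counts, in the fit of the 4 mandible libraries and without both femur LSD1WT replicate 2 libraries. Fosl1 (1.60) and Sgk1 (1.32), a serum-induced kinase, were the others. Both were called in the fit of the 4 mandible libraries, and Sgk1 also without both femur LSD1WT replicate 2 libraries. The fit of the 4 mandible libraries called 20 of the list (13 higher and 7 lower), beside 5434 of all 14403 genes it tested. At the unadjusted threshold the other lists held Dusp1 (1.36) of the 12 ERK feedback inhibitors. They also held Cxcl10 (3.59) and Ptgs2 (1.55) of the 16 delayed inflammatory genes. From the 11 heat shock genes came Hspa1a (1.38), Hspa1b (1.12) and Hsph1 (0.68). All of these were higher in LSD1cKO. The lists as a whole did not all lie on that side. Of the heat shock genes 8 of 11 had a lower mean in LSD1cKO (median log2 difference -0.19), with 3 higher and 7 lower in both libraries, and of the ERK feedback inhibitors 8 of 12 had a lower mean (-0.23), with 4 higher and 7 lower in both, where 34.1% and 34.8% of all genes tested were. The medians were 0.046 for the other immediate early genes, 0.43 for the delayed inflammatory genes, 0.11 for the pathway genes and 0.26 for the partners. Hspa1a and Hspa1b are near-identical copies whose reads the counting may split, so each of their values is uncertain. There were 0 of the 21 pathway genes and 0 of the 17 partners. Klf4, Fosl1, Sgk1, Ptgs2 and the heat shock genes were named after their values were seen.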

How the data were processed

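Read counts per gene were analysed as the authors deposited them, with no normalization, for 57010 Ensembl mouse genes in 12 libraries of polyA RNA. The submitters' processing notes name HISAT2 2.1.0, FastQC, featureCounts, edgeR and GRCm39. The annotation and strand setting are not given in the sources used here. Groups were taken from sample titles. Total counts per library were 21375805 to 32526751.

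In R 4.3.3, genes were kept with filterByExpr (15425 genes), scaled by TMM and fitted with the quasi-likelihood method of edgeR 4.0.16, with 1 coefficient for each of 6 conditions, and p-values were adjusted by Benjamini-Hochberg over all genes and held to 0.05. Fold changes come from this fit, and log2 CPM used a prior count of 2. The model was tested on simulated counts. Alternatives were DESeq2 1.42.0, other scalings and filters, a replicate block, fewer libraries, the library with conflicting labels as femur or left out, and each library left out. Leaving out both femur LSD1WT replicate 2 libraries, or Fosb, was chosen after seeing the data.

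The 10 genes and all gene lists were chosen with earlier results of these data known. Genes named from the lists were the 3 with the largest change in each genotype at a mean of at least 5 CPM in 4 lists, except 1 that is not reported here, and any others are marked. Gene lengths and chromosomes came from GENCODE vM21 and promoters from RefSeq.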

Additional observations from a re-analysis of the deposited data

Results flagged for a closer look

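For Jun, every LSD1cKO library was above every LSD1WT library in mandible cultures and below every LSD1WT library in ligated femur cultures. Of all genes tested, 34.1% and 19.4% were so. The log2 difference of LSD1cKO from LSD1WT was 0.082 in mandible and -0.27 in ligated femur cultures, and the difference between the sites was not tested.

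For Dusp1, a phosphatase of the MAP kinases, both mandible libraries were below both ligated femur libraries in LSD1WT and above them in LSD1cKO, where 31.5% and 35.3% of all genes tested were. In LSD1WT it was at 6.94 and 6.97 CPM in mandible and 11.1 and 28.6 CPM in ligated femur. The 28.6 CPM was replicate 2, which nearly lacked osteoclast transcripts. The log2 difference of mandible from ligated femur was -1.51 in LSD1WT and 0.39 in LSD1cKO, and the difference between the genotypes was not tested. Groups of 2 libraries were too small to check for a library far from the others.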

How the results depend on the processing

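The member medians, the numbers of genes called and the log2 fold changes were recomputed under each alternative, and of the summary values 112 stayed within their margins and 14 moved. DESeq2 called 2 genes in LSD1WT femur, 1 in LSD1cKO femur and 146 in the mandible genotype comparison (141 higher), and without a filter on low counts edgeR called 1 in LSD1WT femur and 45 (43 higher) in the mandible. These femur calls were all among the 10 genes, which this contrast chose, so nothing is read from them. The 4 mandible libraries alone gave 5434 genes (2761 higher) and 3 of the 10 members (Egr2, Egr3 and Junb), and leaving out both femur LSD1WT replicate 2 libraries gave 936 genes (822 higher) in the mandible. Taking mandible LSD1WT replicate 3 as femur lowered the LSD1WT median to 1.13. Its Egr1, Egr2, Egr3 and Nr4a1 (3.56, 1.58, 1.25 and 3.74 CPM) lie below the higher unligated LSD1WT femur library (6.45, 4.85, 3.77 and 7.66 CPM). With this library as femur, the LSD1WT groups of these genes would overlap. Ier2 (26.8 against 26.7 CPM) and Dusp5 (11.2 against 3.81 CPM) would still be above both unligated libraries. With 1 library left out at a time, the member median ran from 1.31 to 1.83 in LSD1WT femur, from 0.71 to 1.21 in LSD1cKO femur and from 0.074 to 0.26 in the mandible, the number of genes called in LSD1WT femur from 0 to 31, and of other immediate early genes from 0 to 1 (Myc, at -1.61, without ligated replicate 1). The replicate block gave medians of 1.52, 0.92 and 0.39 (LSD1WT femur, LSD1cKO femur and mandible) with 0 genes called, and turned Egr1 to 0.052 and Fos to 0.51 in the mandible. Replicate numbers name different mice across ligature and genotype. Deviations of same-numbered libraries correlated at 0.78 in LSD1WT femur, 0.224 in LSD1cKO femur and 0.026 between the LSD1cKO sites, over 15425 genes. In the mandible comparison, leaving out 1 library at a time moved Fosb between -2.31 and 2.98 (below 0 without LSD1WT replicate 1, at -0.14, or LSD1cKO replicate 2) and Nr4a1 between -0.15 and 0.33 (below 0 without replicate 1 of LSD1WT, at -0.070, or of LSD1cKO). The cause of these shifts was not tested. With 2 libraries per group and a biological coefficient of variation of 0.419, small differences were not detectable.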
